A study of Mus musculus with 28 samples.

Results

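Epididymal white fat of mice with an inducible knockout of Fgf13 was compared with epididymal white fat of control mice by bulk RNA-seq. The comparison used the 6 epididymal libraries of the inducible set, out of 28 libraries in the series, and the 14749 of 29330 listed genes that had at least 1 CPM (reads of a gene scaled to a common library total, with no division by gene length) in 3 or more of these libraries. The first group held 3 libraries labelled Fgf13 KO, from mice with an inducible adipose deletion of Fgf13. The second held 3 libraries of control mice labelled WT. Both groups were obese and had eaten a high fat diet for 20 weeks. The inducing agent, its timing, the driver of the recombinase, the age of the mice and the strain were not given in the sources used here. The labels do not say that each library came from its own animal, so every test measures the spread between these libraries. In bulk tissue, fewer cells of a type and less RNA per cell cannot be told apart.

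Fgf13 belongs to the fibroblast growth factor homologous factors, proteins that resemble secreted growth factors but stay inside the cell. They are best known for binding voltage-gated sodium channels in neurons and heart muscle. Epididymal fat is a visceral depot whose adipocytes store triglyceride, and in obesity it gathers macrophages and lymphocytes and lays down collagen. The title of the study names a ceramide and FGF13 axis and nutrient sensing as its subject.

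Fgf13, the targeted gene, had 25.2, 22.6 and 33.4 CPM in the knockout libraries, against 51.4, 41.8 and 39.7 CPM in the control libraries. Every knockout library lay below every control library, and the knockout mean of 27.1 ± 5.61 CPM was 38.9% below the control mean of 44.3 ± 6.26 CPM (SD, n = 3 each). The log2 change, knockout minus control on the log2(CPM + 1) scale, was -0.70, SE 0.17 by limma. Its adjusted p over all 14749 genes was 1.00, and an exact permutation test of the means, two-sided, gave p = 0.1, the smallest that 3 against 3 libraries allow. Transcript from the locus remained in each knockout library, at 22.6 CPM or more. The gene spans chrX:59062145-59568071 on the minus strand in GENCODE M21 (GRCm38). RefSeq gives 4 promoter windows for it on GRCm38.p6, each from 250 bases before to 50 bases after a start, and a gene-level sum cannot tell transcripts of these starts apart. The 2 windows with the most GC are shown because they alone hold the GC box GGGCGG, the motif bound by Sp1, which is in capitals on either strand. They lie at chrX:59567299-59567598 and chrX:59134387-59134686, both on the minus strand, and read 5′ to 3′.
Fgf13 window 2: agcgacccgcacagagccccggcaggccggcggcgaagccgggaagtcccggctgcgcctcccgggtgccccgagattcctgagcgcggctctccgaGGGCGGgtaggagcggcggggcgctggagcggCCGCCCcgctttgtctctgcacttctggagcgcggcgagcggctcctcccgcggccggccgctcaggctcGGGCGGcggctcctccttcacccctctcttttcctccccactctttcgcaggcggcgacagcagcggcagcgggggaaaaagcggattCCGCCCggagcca
Fgf13 window 4: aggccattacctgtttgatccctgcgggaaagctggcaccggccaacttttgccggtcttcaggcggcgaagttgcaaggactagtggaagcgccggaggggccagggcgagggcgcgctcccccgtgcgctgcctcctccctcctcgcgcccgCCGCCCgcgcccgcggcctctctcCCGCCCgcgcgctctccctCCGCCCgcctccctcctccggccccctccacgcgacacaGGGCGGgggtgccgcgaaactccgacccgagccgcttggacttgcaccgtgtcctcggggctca

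Windows 2 and 4 were 74.3% and 73% GC and held 4 GC boxes each. The other 2 windows, which start at positions 59585523 and 59166039 of the X chromosome, were 46.3% and 40.3% GC and held 0. Of 32851 RefSeq mouse windows of 300 bases, 35.7% held at least 1 GC box, so a match is common and marks no binding site by itself. The deposited table carries names written beside 5 of its rows, Pparg, Sp1, Srebf1, Nfkb1 and Ets1, all transcription factors, with no reason given. Sp1 had 57.2, 57.3 and 79.5 CPM in knockout, against 75.5, 59.5 and 58.1 CPM in control. Srebf1, the regulator of lipogenic genes, had 352, 367 and 255 CPM in knockout, against 325, 354 and 427 CPM in control. Ets1, a factor abundant in lymphocytes and endothelium, had 117, 102 and 94.0 CPM in knockout, against 105, 80.9 and 80.4 CPM in control. For all 5 the groups overlapped, and the log2 changes ran from -0.19 for Srebf1 to 0.24 for Ets1.

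Adipocyte transcripts were abundant in all 6 libraries, which is what the tissue label calls for. Adiponectin (Adipoq) had 1586, 1952 and 1203 CPM in knockout, against 1367, 1366 and 1544 CPM in control, and perilipin 1 (Plin1), which coats the lipid droplet, had 1227, 1518 and 827 CPM in knockout, against 953, 1043 and 1374 CPM in control. The mesothelial genes Upk3b and Wt1, found on visceral fat, had at least 9.42 and 5.16 CPM in every library.

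The libraries were not alike in RNA from other organs. Control replicate 3 held 1053 genes at 2 CPM or more that exceeded every other library by more than 4 times, and together they made up 1.25% of its reads. The other 5 libraries held 2 to 23 such genes. A list of 34 testis germ cell genes, written after these values were seen, summed to 1955 CPM in control replicate 3 and to between 73.6 and 135 CPM in the others. The sperm chromatin protein Prm2 had 1.30, 0 and 0.321 CPM in knockout, against 9.82, 0 and 353 CPM in control. A list of 34 liver genes, written likewise, summed to 1593, 5231 and 1762 CPM in knockout replicates 1, 2 and 3, against 89.7, 3121 and 2901 CPM in control replicates 1, 2 and 3. Albumin (Alb) had 453, 1305 and 577 CPM in knockout, against 10.1, 1046 and 887 CPM in control. Control replicate 1 had the least liver transcript, and knockout replicate 2 the most. Of the genes peculiar to control replicate 3, 83 were among the genes tested, and many counts below move with the libraries left out.

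**Figure D1:**
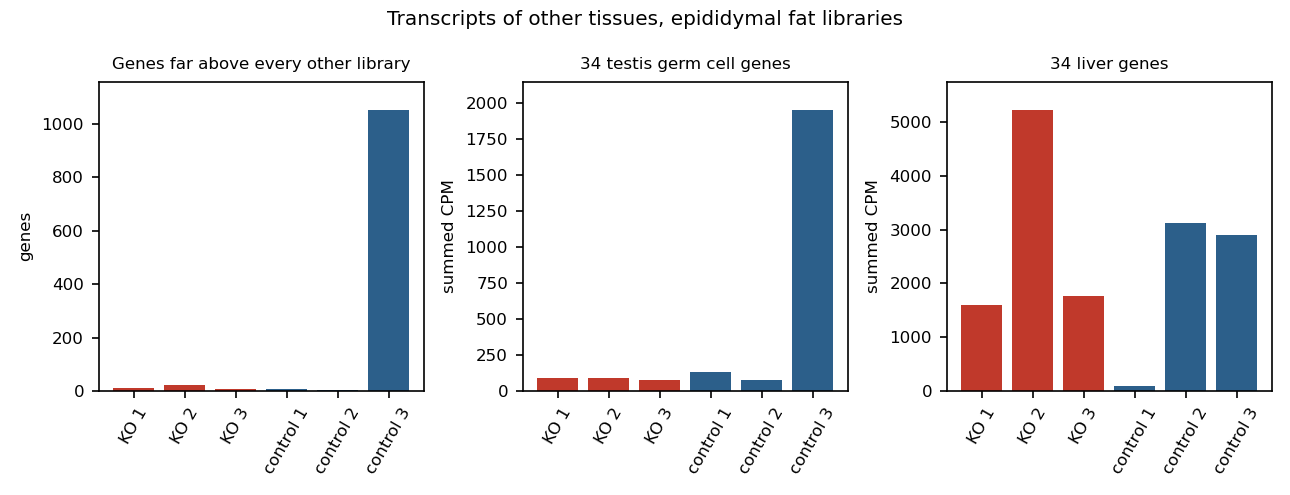
Transcripts of other organs in each library, with knockout libraries in red on the left and control libraries in blue on the right. The panels show the number of genes at 2 CPM or more that exceeded every other library by more than 4 times, the summed CPM of 34 testis germ cell genes, and the summed CPM of 34 liver genes. Control replicate 3 reaches 1053 genes and 1955 CPM of testis transcripts, and liver transcripts range from 89.7 to 5231 CPM.

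The libraries held 29857189 to 43624353 reads. No gene passed the limma test at a Benjamini-Hochberg adjusted p under 0.05, so 0% of genes were called, and the smallest adjusted p was 1.00. At an unadjusted p under 0.05, 295 genes were higher in knockout (2% of those tested) and 91 were lower (0.617%), 386 in all, fewer than the share this threshold lets through when nothing differs. The higher genes numbered 189 without knockout replicate 1, 556 without knockout replicate 3, 587 without control replicate 1 and 186 without control replicate 2, and the lower genes 375 without knockout replicate 3. Without overlap of the groups, 506 genes were higher (3.43%) and 248 lower (1.68%), and 80 and 10 of them also differed by more than 2-fold. edgeR on the recovered reads called 0 genes. DESeq2 called 32, of which 29 were higher and 3 lower. Of the 29, 15 were immunoglobulin genes and 6 belonged to the T cell receptor or regulatory T cell lists. The genes tested numbered 14749, of which 128 were immunoglobulin genes. Ighv1-81, Igkv4-58, Ighv1-7, Igkv17-121, Igkv9-124 and Ighv1-85 of the 15, and Tnfrsf4 of the 6, were under 1 CPM in all 3 control libraries. They passed the filter through the knockout libraries alone, which favours higher knockout values. The count of 29 is therefore partly set by the filter. The values that follow therefore describe these 6 libraries, and "higher" and "lower" refer to their values alone. The median log2 change over all genes was 0.02, and 55.8% of them had higher values in knockout. The shares of all genes given here are the background for every list count below. The lists were chosen with earlier results of these data known, so a count above its share is no independent support. Correlations between libraries ran from 0.952 to 0.982 within the groups and from 0.950 to 0.982 between them.

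Among the 12 genes with higher values, the smallest p and no overlap, 5 belonged to the lymphocyte lists described further on, and secreted and matrix genes led the rest. Rspo1, a secreted enhancer of Wnt signalling and one of the listed mesothelial genes, had 18.0, 18.5 and 21.7 CPM in the knockout libraries, against 11.9, 9.02 and 9.09 CPM in the control libraries (log2 change 0.90, SE 0.15). Spon1, a matrix protein first described in the floor plate, had 53.5, 48.8 and 45.0 CPM in knockout, against 32.3, 24.5 and 26.5 CPM in control (0.81, SE 0.14). Mgp, a matrix protein that inhibits calcification, had 339, 348 and 313 CPM in knockout, against 223, 227 and 216 CPM in control (0.58, SE 0.11). In these 3 genes the knockout libraries lay close together and clear of the control libraries, as choice by smallest p without overlap favours. Dnase1l3, a secreted nuclease that clears DNA from dying cells, had 4.18, 5.39 and 5.89 CPM in knockout, against 2.45, 2.06 and 2.32 CPM in control (0.90, SE 0.18). Serpina3g, a protease inhibitor induced in activated immune cells of mice, had 16.3, 13.03 and 17.6 CPM in knockout, against 9.26, 5.01 and 7.55 CPM in control (1.03, SE 0.22). The membrane protein gene Tmem154 had 7.31, 7.17 and 8.30 CPM in knockout, against 4.59, 3.52 and 3.02 CPM in control (0.88, SE 0.18). For all 3, control replicate 1 was the highest control library. Sept1, a septin of the cytoskeleton, had 21.8, 16.6 and 15.9 CPM in knockout, against 11.3, 7.53 and 7.46 CPM in control (0.98, SE 0.20).

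**Figure D2:**
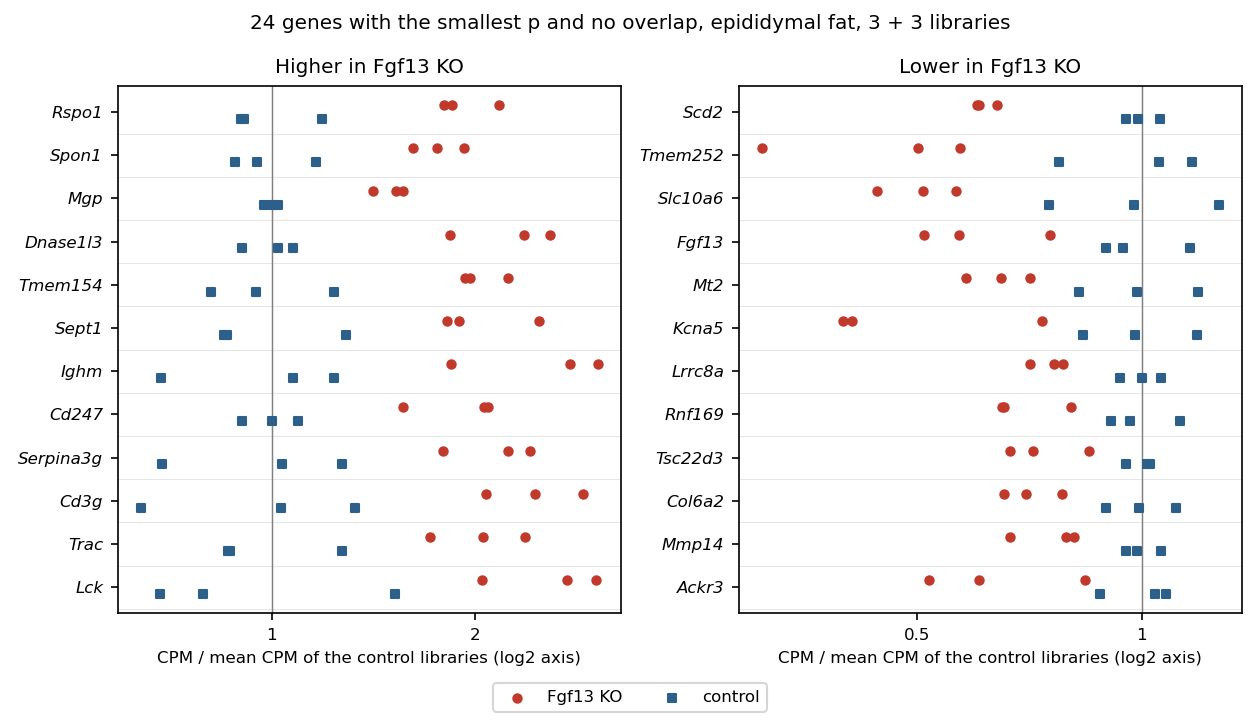
CPM of each library divided by the mean of the 3 control libraries, on a log2 axis, for the 12 genes with higher and the 12 with lower values that had the smallest p and no overlap. Red circles are knockout libraries, drawn above, and blue squares control libraries, drawn below. Each knockout point lies on 1 side of all control points of its gene, as the choice of genes requires, none of the 24 genes passed adjustment by limma, and DESeq2 called 13 of them.

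The gene with the smallest p of all was Scd2, which introduces a double bond into saturated fatty acids and is the desaturase of many tissues besides liver. It had 261, 277 and 262 CPM in the knockout libraries, against 459.7, 428 and 413 CPM in the control libraries (log2 change -0.70, SE 0.11). The knockout libraries spanned a narrow band, below each control library, as choice by smallest p favours. Its paralogue Scd1, the main desaturase of adipocytes, had 5546, 12103 and 7107 CPM in knockout, against 10176, 9976 and 11379 CPM in control, with overlap. Several carriers and channels of the cell membrane stood among the 12 lower genes. Slc10a6, a transporter of sulphated steroids, had 4.89, 6.23 and 5.64 CPM in knockout, against 14.1, 8.31 and 10.8 CPM in control (-0.85, SE 0.20). Kcna5, a voltage-gated potassium channel, had 8.80, 15.8 and 8.55 CPM in knockout, against 21.0, 18.0 and 25.5 CPM in control (-0.94, SE 0.24). Lrrc8a, the obligatory subunit of the volume-regulated anion channel, had 53.5, 55.0 and 49.7 CPM in knockout, against 70.2, 65.5 and 74.5 CPM in control (-0.40, SE 0.11). In all 3 genes the highest knockout library lay below the lowest control library, as the choice of genes requires. Tmem252 had 11.9, 10.4 and 6.42 CPM in knockout, against 21.9, 16.1 and 24.3 CPM in control (-1.06, SE 0.24). Ackr3, a receptor that takes up the chemokine CXCL12 without G protein signalling, had 25.7, 22.0 and 35.6 CPM in knockout, against 45.7, 37.3 and 44.2 CPM in control (-0.62, SE 0.19). Its ligand Cxcl12 had 326, 297 and 277 CPM in knockout, against 312, 257 and 259.7 CPM in control, with overlap. The metal-binding metallothionein Mt2 had 66.0, 59.2 and 72.3 CPM in knockout, against 84.0, 101 and 122 CPM in control (-0.61, SE 0.16). Tsc22d3, a leucine zipper protein induced by glucocorticoids, had 133, 143 and 171 CPM in knockout, against 204, 206 and 191 CPM in control (-0.43, SE 0.13). Rnf169, a ubiquitin ligase found at DNA breaks, had 21.0, 20.9 and 25.8 CPM in knockout, against 36.1, 29.2 and 30.9 CPM in control (-0.49, SE 0.14). The remaining lower genes were Fgf13 itself and the matrix genes Col6a2 and Mmp14.

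T cell transcripts had higher values in the knockout libraries across the receptor complex. Of 21 tested genes of the T cell receptor complex and its signalling, 15 were higher and 0 lower at an unadjusted p under 0.05, and 13 did not overlap, where 2% and 3.43% of all genes met these rules. The median log2 change was 0.84, and the mean log2(CPM + 1) over the list was 3.26, 2.87 and 3.18 in the knockout libraries, against 2.73, 2.16 and 2.02 in the control libraries. The receptor chains were low in abundance. The alpha constant gene Trac had 9.29, 7.77 and 10.7 CPM in knockout, against 5.74, 3.90 and 3.93 CPM in control, and the beta constant gene Trbc2 had 11.7, 9.51 and 11.6 CPM in knockout, against 7.40, 4.23 and 3.68 CPM in control. Trbc1 had 8.95, 5.16 and 6.56 CPM in knockout, against 3.95, 1.60 and 1.63 CPM in control. Each knockout library exceeded each control library for these 3 genes. Among the CD3 chains that carry the signal, Cd3g had 7.50, 5.39 and 6.37 CPM in knockout, against 3.44, 2.68 and 1.66 CPM in control (1.07, SE 0.23), Cd3d had 5.39, 4.02 and 4.19 CPM in knockout, against 3.04, 1.92 and 1.36 CPM in control (0.86, SE 0.23), and the groups met for Cd3e, with 5.36, 3.72 and 4.79 CPM in knockout, against 3.72, 2.44 and 1.75 CPM in control (0.65, SE 0.24). Cd247, the zeta chain, had 10.9, 11.1 and 8.32 CPM in knockout, against 5.82, 4.79 and 5.31 CPM in control (0.81, SE 0.16).

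The kinases and adaptor downstream of the receptor followed. Lck, which phosphorylates the CD3 chains, had 14.7, 9.95 and 13.3 CPM in knockout, against 7.40, 3.85 and 3.32 CPM in control (1.27, SE 0.27). Zap70, the kinase recruited to them, had 5.51, 3.99 and 4.91 CPM in knockout, against 2.09, 2.17 and 2.14 CPM in control (0.88, SE 0.17), and its 3 control values were almost equal. The adaptor Lat had 12.4, 9.68 and 9.17 CPM in knockout, against 6.66, 4.41 and 4.08 CPM in control (0.93, SE 0.21). The coreceptors did not separate the groups. Cd4, the coreceptor of helper T cells, had 13.4, 12.3 and 11.97 CPM in knockout, against 21.1, 3.71 and 3.14 CPM in control (0.84, SE 0.64), with control replicate 1 highest of all 6 libraries. Cd8a, the coreceptor of cytotoxic T cells, had 5.70, 3.72 and 5.52 CPM in knockout, against 4.90, 2.11 and 1.93 CPM in control (0.65, SE 0.30). The count of 15 was 12 to 19 when each library was left out in turn, and 15 without control replicate 3 and knockout replicate 2 together.

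Regulatory T cells, which restrain inflammation and are a large share of T cells in lean visceral fat, had 8 tested genes. Of these, 5 were higher and 0 lower at an unadjusted p under 0.05, with no overlap for the 5 and a list median of 0.79. Among all genes, 2% were higher at that p and 3.43% were higher without overlap. Foxp3, their defining transcription factor, had 2.35, 1.67 and 2.70 CPM in the knockout libraries, against 1.07, 0.515 and 0.211 CPM in the control libraries (1.04, SE 0.25). The receptors Tnfrsf18 (GITR) and Tnfrsf4 (OX40) had 4.03, 2.55 and 3.23 CPM in knockout, against 1.33, 0.921 and 1.03 CPM in control (1.02, SE 0.19), and 2.35, 2.24 and 2.25 CPM in knockout, against 0.816, 0.488 and 0.755 CPM in control (0.97, SE 0.17). Tnfrsf4 passed the filter through the knockout libraries alone, which favours higher knockout values in the count of this list. Tigit and Icos, an inhibitory and a costimulatory receptor, had log2 changes of 0.78 and 0.79. The groups overlapped for the other 3 genes. Il1rl1, the receptor for IL-33, had 8.49, 7.54 and 20.4 CPM in knockout, against 13.98, 12.6 and 10.3 CPM in control (-0.14, SE 0.34). The interleukin 2 receptor chain Il2ra had 5.51, 7.90 and 7.27 CPM in knockout, against 6.17, 6.26 and 4.95 CPM in control, and the third was Ikzf2. The count of 5 was the same with each library left out in turn, and 1 gene was lower without knockout replicate 3.

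Natural killer and cytotoxic genes, of cells that kill infected targets, also had higher values. Of 9 tested, 6 were higher and 0 lower at an unadjusted p under 0.05, and the list median was 0.64. Without overlap 7 were higher, where 2% of all genes were higher at that p and 3.43% without overlap. Il2rb, the receptor chain for interleukins 2 and 15, had 17.9, 17.3 and 18.1 CPM in knockout, against 12.8, 7.61 and 9.27 CPM in control (0.81, SE 0.18). Tbx21, the transcription factor T-bet, had 3.44, 3.38 and 2.41 CPM in knockout, against 1.56, 1.11 and 1.63 CPM in control (0.74, SE 0.19), and the granule protein Nkg7 had 9.69, 5.89 and 7.31 CPM in knockout, against 4.67, 3.17 and 4.32 CPM in control (0.76, SE 0.21). Gzma, a granzyme, stood near 1 CPM with 1.36, 1.34 and 1.17 CPM in knockout, against 0.663, 0.379 and 0.393 CPM in control (0.64, SE 0.17). Like Tnfrsf4, Gzma passed the filter through the knockout libraries alone. The count of 6 was 5 to 7 with each library left out. In the innate lymphoid list, Gata3 had 2.04, 1.71 and 1.79 CPM in knockout, against 1.15, 0.785 and 0.604 CPM in control and Bcl11b had 2.69, 3.01 and 3.12 CPM in knockout, against 2.14, 0.921 and 0.966 CPM in control, the only 2 of 8 tested genes at an unadjusted p under 0.05, and 0 of them stayed there without control replicate 3 and knockout replicate 2 together.

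B cell genes had a larger median change than T cell genes, with more overlap between the groups. Of 19 tested, 8 were higher and 0 lower at an unadjusted p under 0.05, where 2% of all genes were higher. Only 3 of the 19 were higher without overlap, where 3.43% of all genes were, and the median log2 change was 1.18. Cd79a, the signalling chain of the B cell receptor, had 40.7, 16.3 and 33.4 CPM in knockout, against 19.8, 4.63 and 1.96 CPM in control (2.05, SE 0.77), and Ms4a1, which encodes CD20, had 6.13, 4.45 and 12.3 CPM in knockout, against 5.74, 0.488 and 0.362 CPM in control (1.75, SE 0.69). In both of these genes control replicate 1 reached at least 1 of the knockout libraries, while control replicates 2 and 3 were far lower. Spib, a transcription factor of B cells, had 9.91, 5.96 and 12.3 CPM in knockout, against 5.61, 1.60 and 0.694 CPM in control (1.71, SE 0.51), and the kinase Blk had 6.75, 3.95 and 5.62 CPM in knockout, against 3.78, 1.90 and 1.18 CPM in control (1.03, SE 0.31), both without overlap. The count of 8 was 1 without knockout replicate 3, 3 without knockout replicate 1, control replicate 2 or control replicate 3, and 14 without control replicate 1.

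Immunoglobulin transcripts, the product of B and plasma cells, were higher in every knockout library than in every control library when summed. All 225 listed immunoglobulin genes together made up 1.11%, 0.614% and 0.971% of reads in the knockout libraries, against 0.464%, 0.326% and 0.150% in the control libraries. Of 128 of them that were tested, 123 had higher and 5 lower values. At an unadjusted p under 0.05, 56 were higher, and 51 were higher without overlap, where 2% and 3.43% of all genes were. Some of the 128 passed the filter through the knockout libraries alone, which favours higher knockout values, so these counts are partly set by the filter. Igkv4-58, for example, had 1.70, 6.36 and 1.70 CPM in knockout, against 0.128, 0.0542 and 0.0302 CPM in control. Ighm, the heavy chain of IgM, took most of the heavy chain constant reads in each library and had 5169.5, 3129 and 4692 CPM in the knockout libraries, against 2098, 1829.9 and 1166 CPM in the control libraries (1.36, SE 0.28). The switched isotypes had larger log2 changes from lower levels. Ighg2b had 218, 144 and 289 CPM in knockout, against 73.6, 21.0 and 11.4 CPM in control (2.94, SE 0.69), Ighg2c had 598, 80.3 and 129 CPM in knockout, against 36.5, 4.36 and 12.1 CPM in control (3.74, SE 1.05), and Ighg1 had 14.2, 49.3 and 33.4 CPM in knockout, against 8.75, 2.46 and 0.362 CPM in control (3.05, SE 0.82). Ighg2c in knockout replicate 1 stood apart from the other knockout libraries. Ighg3 had 51.8, 44.8 and 176 CPM in knockout, against 32.1, 12.2 and 0.393 CPM in control (3.15, SE 1.31). Igha, the heavy chain of IgA, did not follow, with 203, 248 and 171 CPM in knockout, against 483, 153 and 36.7 CPM in control (0.55, SE 0.95) and its highest value in control replicate 1. The near-identical constant genes of the IgG subclasses share sequence, so reads may be split between them. Of 11 tested constant genes, 7 were higher at an unadjusted p under 0.05 and 8 were higher without overlap, where 2% and 3.43% of all genes were. The count of 7 was 1 without knockout replicate 3 and 4 without knockout replicate 1, or without control replicate 3 and knockout replicate 2 together.

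Each B cell joins its own variable gene to the constant gene, so variable genes sample the clones present. Heavy chain variable genes with at least 1 CPM numbered 60, 55 and 55 in the knockout libraries, against 42, 32 and 8 in the control libraries. The most abundant of them differed in each library, Ighv1-53, Ighv7-1 and Ighv1-9 in knockout and Ighv2-9, Ighv11-2 and Ighv5-17 in control, and held 8.31%, 12.3% and 18.4% of heavy chain variable reads in knockout, against 9.31%, 12.4% and 15.1% in control. Among kappa variable genes, 65, 66 and 63 reached 1 CPM in the knockout libraries, against 61, 46 and 14 in the control libraries. The summed CPM of heavy chain and of kappa variable genes was higher in every knockout library than in every control library. More genes pass a fixed 1 CPM when that sum is higher, so these counts do not show a difference in clones. The number of clones was not tested. Iglv1 led the lambda variable genes in all 6 libraries. Variable genes are many and alike, so the reads of single members are uncertain.

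Plasma cells secrete antibody, and their genes are those of a large secretory machinery. Of 11 tested, 4 were higher and 0 lower at an unadjusted p under 0.05, where 2% and 0.617% of all genes were. Jchain, which joins IgM and IgA into polymers, had 258, 204 and 323 CPM in the knockout libraries, against 179.8, 85.7 and 17.6 CPM in the control libraries (1.96, SE 0.86). Mzb1, a chaperone of antibody assembly, had 16.6, 9.88 and 17.4 CPM in knockout, against 7.30, 4.79 and 0.845 CPM in control (1.77, SE 0.57), and Derl3, of endoplasmic reticulum degradation, had 6.23, 4.29 and 6.58 CPM in knockout, against 2.70, 2.38 and 2.96 CPM in control (0.85, SE 0.19). Xbp1, needed for plasma cells but expressed in most secretory cells, had 186, 141 and 190.1 CPM in knockout, against 178, 165 and 170.2 CPM in control (0.00, SE 0.14). The count of 4 was 1 without knockout replicate 1 or 3 and 2 without control replicate 2.

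**Figure D3:**
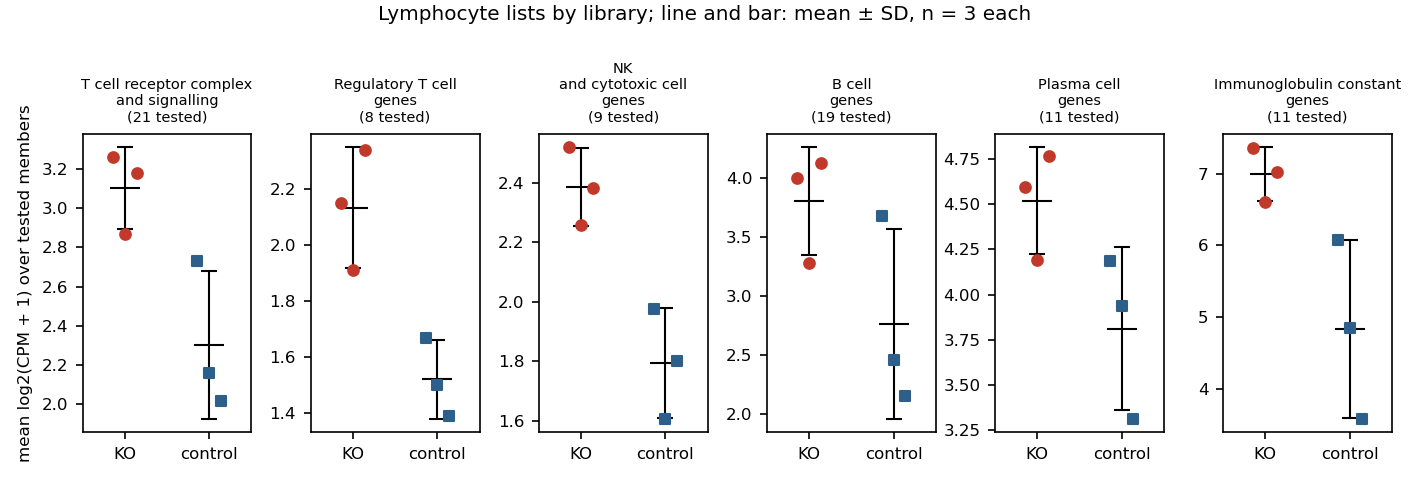
Mean log2(CPM + 1) over the tested members of 6 lymphocyte lists, with knockout libraries in red on the left and control libraries in blue on the right, and the mean and SD of each group (n = 3). The groups do not overlap for 5 lists, with plasma cell genes nearly touching, and overlap for B cell genes, where control replicate 1 at 3.67 lies above knockout replicate 2 at 3.28.

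Genes of lymph node stroma are set beside these values. Of 9 tested lymphoid stroma genes, 1 was higher at an unadjusted p under 0.05 and 0 lower. That gene was Ltb, lymphotoxin beta, which lymphocytes make, with 15.7, 10.1 and 12.5 CPM in knockout, against 8.55, 4.25 and 2.51 CPM in control (1.28, SE 0.36). The count was 6 without control replicate 1 and 2 without knockout replicate 2 or 3. Ccl21a, a chemokine of lymphatic vessels and nodes, had 129, 78.2 and 42.3 CPM in knockout, against 65.0, 32.9 and 31.6 CPM in control, with overlap. Cxcl13, which draws B cells into follicles, had 5.82, 3.89 and 19.8 CPM in knockout, against 12.6, 1.87 and 0.876 CPM in control, and Cr2, of follicular cells and mature B cells, had 1.42, 0.971 and 2.13 CPM in knockout, against 2.60, 0.163 and 0.272 CPM in control. Glycam1, of the high endothelial venules of lymph nodes, was at 0 in the 3 control libraries and had 0.124, 0.234 and 0.481 CPM in the knockout libraries, too low to pass the filter. The part of these genes in the lymphocyte values was not tested.

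Interferon response genes, switched on in most cells by interferons, had small differences. All 29 tested had higher values, where 55.8% of all genes had, with a list median of 0.25. The mean log2(CPM + 1) over the list overlapped between the groups. At an unadjusted p under 0.05, 6 were higher and 0 lower, where 2% and 0.617% of all genes were. Tap1 and Psmb8, which prepare peptides for MHC class I, had 77.8, 71.0 and 67.3 CPM in knockout, against 55.2, 53.8 and 55.3 CPM in control (0.39, SE 0.11), and 97.6, 88.6 and 83.9 CPM in knockout, against 73.1, 77.4 and 72.7 CPM in control (0.27, SE 0.11). The interferon-induced GTPases Iigp1 and Igtp had 32.0, 33.9 and 29.4 CPM in knockout, against 26.8, 17.1 and 20.0 CPM in control (0.58, SE 0.17), and 31.6, 29.8 and 27.1 CPM in knockout, against 23.6, 21.4 and 21.9 CPM in control (0.39, SE 0.12). The count of 6 was 3 without knockout replicate 2, control replicate 2 or control replicate 3, 9 without control replicate 1, and 1 without control replicate 3 and knockout replicate 2 together. Of 12 tested cytokines and chemokines, 3 were higher and 0 lower at an unadjusted p under 0.05, against the same shares of all genes. All 3 encode chemokines that attract T cells, Ccl5 with 18.3, 14.9 and 14.6 CPM in knockout, against 10.7, 8.80 and 10.7 CPM in control (0.61, SE 0.15), Cxcl10 with 7.53, 4.59 and 4.95 CPM in knockout, against 3.72, 2.52 and 3.86 CPM in control (0.60, SE 0.23), and Cxcl9, whose groups overlapped, with 43.2, 51.5 and 30.5 CPM in knockout, against 29.1, 24.2 and 31.3 CPM in control (0.52, SE 0.20). Without knockout replicate 1 or control replicate 2 the count was 1.

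Macrophages are the main immune cell of obese fat. Of 15 resident and 17 lipid-associated macrophage genes tested, 0 had an unadjusted p under 0.05 in either direction. Without knockout replicate 3, 2 resident genes were lower, and 1 lipid-associated gene was higher and 1 lower. Without control replicate 3, 1 resident gene was lower, and without knockout replicate 2, 1 lipid-associated gene was higher. The receptor Csf1r had 585, 431 and 793 CPM in the knockout libraries, against 663, 841 and 581 CPM in the control libraries (-0.23, SE 0.24), and Trem2, a lipid receptor of macrophages around dying adipocytes, had 413, 219.7 and 479.7 CPM in knockout, against 311, 482 and 349 CPM in control. Knockout replicate 2 was the lowest and knockout replicate 3 among the highest for both. Cpa3, a mast cell protease, had 12.2, 6.80 and 56.3 CPM in knockout, against 30.6, 22.0 and 21.9 CPM in control (-0.50, SE 0.74), with knockout replicate 3 highest. Of 9 tested genes of mast cells, basophils and eosinophils, 1 was higher and 0 lower at an unadjusted p under 0.05, and 1 was higher and 5 lower when this library was left out. The higher count was 0 without knockout replicate 1 and 2 without knockout replicate 2. Il33, the alarmin of stromal cells, had 9.91, 9.34 and 23.4 CPM in knockout, against 10.99, 6.88 and 7.22 CPM in control (0.61, SE 0.35).

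Collagens, the fibres of the tissue matrix, had lower values in the knockout libraries. Of 24 tested collagen genes, 19 had lower and 5 higher values, 4 were lower and 0 higher at an unadjusted p under 0.05, and these 4 did not overlap, where 0.617% and 1.68% of all genes met those rules in that direction. The list median was -0.23, and the mean log2(CPM + 1) was 7.27, 7.38 and 7.44 in the knockout libraries, against 7.54, 7.57 and 7.51 in the control libraries. The 4 encode chains of collagens VI and V. Of collagen VI, the beaded collagen around adipocytes, Col6a2 had 765, 818 and 915 CPM in the knockout libraries, against 1048, 1302 and 1159 CPM in the control libraries (-0.49, SE 0.14), and Col6a1 had 656, 697 and 798 CPM in knockout, against 922, 1078 and 894 CPM in control (-0.43, SE 0.14). The third chain, Col6a3, had 356, 417 and 640.3 CPM in knockout, against 638, 603 and 669.8 CPM in control (-0.48, SE 0.21), and knockout replicate 3 reached the control libraries. Collagen V, which sets the diameter of fibrils, gave 365, 374 and 417 CPM in knockout, against 461, 522 and 516 CPM in control for Col5a1 (-0.37, SE 0.12), and 285, 295 and 375 CPM in knockout, against 383, 439 and 404 CPM in control for Col5a2 (-0.37, SE 0.14). The abundant fibrillar genes Col1a1, Col1a2 and Col3a1 overlapped, with log2 changes of -0.22, -0.23 and -0.41. The count of 4 was 1 without knockout replicate 1 or control replicate 2 and 6 without knockout replicate 3.

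**Figure D4:**
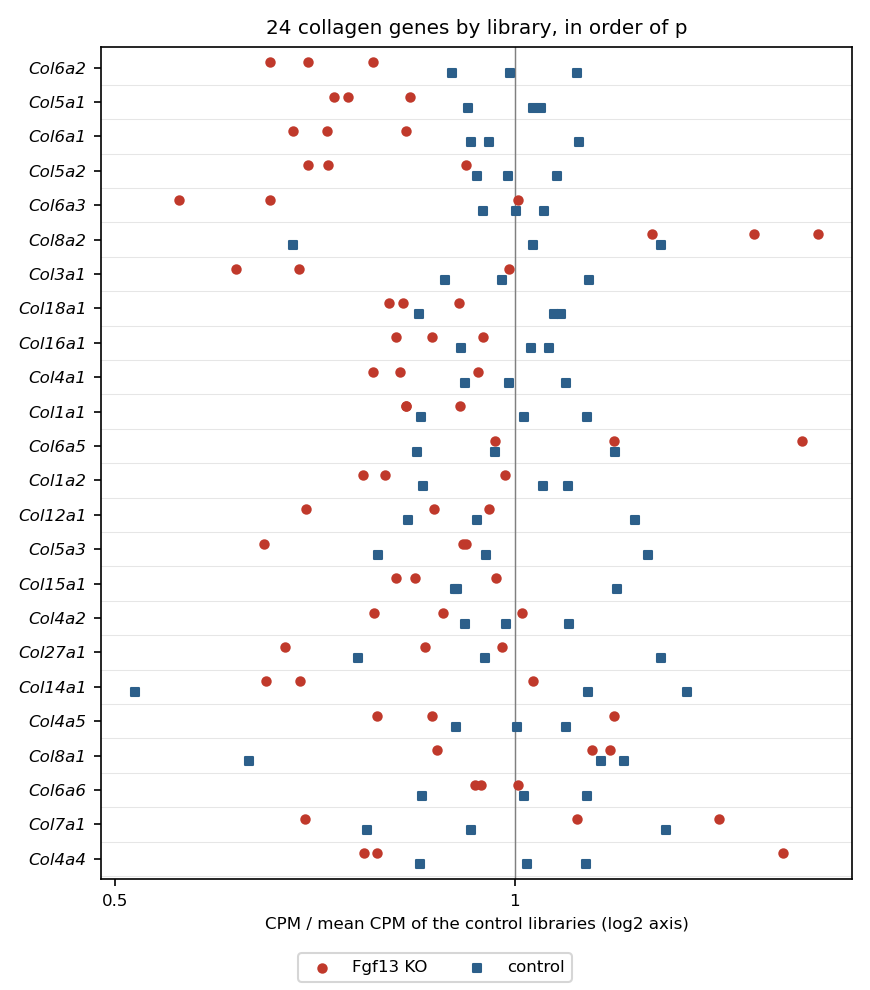
CPM of each library divided by the mean of the 3 control libraries, on a log2 axis, for the 24 tested collagen genes in order of p. Red circles are knockout libraries, drawn above, and blue squares control libraries, drawn below. The groups do not overlap in the first 4 genes, and 19 of the 24 have a log2 change below 0.

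Among 32 tested genes of collagen processing and other matrix proteins, 26 had lower values, where 55.8% of all genes had higher values. At an unadjusted p under 0.05, 5 of the 26 were lower, where 0.617% of all genes were. The 2 higher at that threshold, where 2% of all genes were, were Spon1 and Mgp. Mmp14, a membrane-bound collagenase, had 193, 159 and 189 CPM in knockout, against 235, 253 and 227 CPM in control (-0.40, SE 0.12). Loxl2 and Loxl1, which cross-link collagen and elastin, had 62.1, 62.5 and 87.5 CPM in knockout, against 91.3, 109 and 87.9 CPM in control (-0.45, SE 0.17), and 139, 123 and 143 CPM in knockout, against 165, 211 and 152 CPM in control (-0.37, SE 0.15). Serpinh1, the collagen chaperone, had 634, 569.9 and 651 CPM in knockout, against 714, 815 and 752 CPM in control (-0.30, SE 0.13), and P4ha2, a prolyl hydroxylase, had 22.8, 19.6 and 22.5 CPM in knockout, against 25.9, 27.2 and 27.2 CPM in control (-0.30, SE 0.12). The 5 lower genes became 13 without knockout replicate 3, 1 without knockout replicate 1, knockout replicate 2 or control replicate 2, 3 without control replicate 1, and 0 without control replicate 3 and knockout replicate 2 together. Fibroblast genes split the knockout libraries. Fn1, fibronectin, had 407, 333 and 1170.1 CPM in knockout, against 1046, 1277 and 707 CPM in control (-0.86, SE 0.50), and Pi16, of the fibroblast progenitors near vessels, had 17.6, 14.9 and 61.5 CPM in knockout, against 47.0, 59.1 and 48.8 CPM in control (-0.99, SE 0.52). Knockout replicate 3 stood with the control libraries for both. Of 23 tested fibroblast and progenitor genes, Fbn1, fibrillin, alone had an unadjusted p under 0.05, with 130.3, 109.7 and 250.3 CPM in knockout, against 319, 331 and 234 CPM in control. The count was 7 without knockout replicate 3 and 0 without knockout replicate 1, knockout replicate 2, control replicate 1 or control replicate 2.

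Mesothelial genes, from the lining of visceral fat, had 2 of 18 tested members higher and 0 lower at an unadjusted p under 0.05, Rspo1 and Slpi. At that threshold 2% of all genes were higher and 0.617% lower. Slpi, a protease inhibitor, had 55.6, 29.8 and 44.3 CPM in knockout, against 32.9, 16.3 and 13.01 CPM in control (1.09, SE 0.37), with overlap. The defining genes overlapped, Msln with 2.04, 4.89 and 5.52 CPM in knockout, against 4.00, 2.90 and 3.02 CPM in control and Upk3b with 9.42, 15.8 and 32.3 CPM in knockout, against 19.2, 9.97 and 11.02 CPM in control. The count of 2 was 5 without knockout replicate 1 or control replicate 1, 3 without knockout replicate 2, and 1 without knockout replicate 3, control replicate 2 or control replicate 3. Of 21 endothelial genes, 0 had an unadjusted p under 0.05 with all libraries and 6 were higher without knockout replicate 3. Pecam1, an adhesion protein of endothelium, had 323, 369.5 and 237 CPM in knockout, against 293, 293 and 286 CPM in control.

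Few adipocyte genes had a small p. None of 17 adipokines, 20 lipolysis and lipid droplet genes, 22 fatty acid oxidation genes, 22 genes of insulin signalling and glucose uptake or 12 thermogenic genes tested had an unadjusted p under 0.05. Without knockout replicate 3, 2 adipokines, 3 lipolysis genes, 4 fatty acid oxidation genes and 2 thermogenic genes were higher at that threshold. A single adipokine was lower without knockout replicate 2, a single lipolysis gene was lower without knockout replicate 1, and a single thermogenic gene was higher without knockout replicate 2. Among 22 lipogenic enzymes Scd2 alone was lower at that threshold, against 3 genes without knockout replicate 2 and 2 without knockout replicate 3. Acly, which makes cytosolic acetyl-CoA, had 233, 239 and 255 CPM in knockout, against 273, 283 and 298 CPM in control (-0.23, SE 0.11), without overlap, and Fasn, fatty acid synthase, had 1365, 1618 and 1212 CPM in knockout, against 1445, 1635 and 2334 CPM in control (-0.35, SE 0.21), with control replicate 3 highest. Among 18 transcription factors of adipocytes, 1 was higher and 1 lower at that threshold. Esr1, oestrogen receptor alpha, was higher with 17.0, 25.6 and 21.1 CPM in the knockout libraries, against 15.99, 10.1 and 8.997 CPM in the control libraries (0.83, SE 0.23). Cebpd, an early adipogenic factor, was lower with 17.5, 12.1 and 13.6 CPM in knockout, against 18.9, 17.6 and 25.0 CPM in control (-0.48, SE 0.19). The groups did not overlap for either gene, and the nearest knockout and control values lay close together for both. The count of higher factors was 2 without knockout replicate 3 or control replicate 1, and 0 without control replicate 3 and knockout replicate 2 together. The count of lower factors was 2 without knockout replicate 1, and 0 without knockout replicate 2, without control replicate 3, and without both. Nuclear genes of oxidative phosphorylation had 41 of 43 members with higher values, where 55.8% of all genes had higher values. Their list median was 0.06, against 0.02 over all genes, and their mean log2(CPM + 1) overlapped between the groups. Of these genes 0 had an unadjusted p under 0.05, or 2 higher without knockout replicate 3. Of 20 heat shock and chaperone genes, 19 had lower values, where 55.8% of all genes had higher values, and the median was -0.12. Their mean log2(CPM + 1) did not overlap, at 6.27, 6.13 and 6.35 in knockout, against 6.40, 6.40 and 6.46 in control. Again 0 had an unadjusted p under 0.05, or 3, 1 and 2 lower without knockout replicate 3, control replicate 1 and control replicate 2. Control replicate 3 was highest for the testis-rich chaperone Hspa4l, with 15.3, 14.5 and 19.6 CPM in knockout, against 20.8, 15.0 and 39.0 CPM in control. Of 18 tested clock genes, 12 had higher and 6 lower values, and 3 were higher and 0 lower at an unadjusted p under 0.05, where 2% and 0.617% of all genes were. The repressor Bhlhe41 had 25.7, 20.2 and 26.1 CPM in knockout, against 17.3, 16.3 and 14.4 CPM in control (0.55, SE 0.15), and Per3 had 43.8, 67.6 and 43.2 CPM in knockout, against 38.1, 38.7 and 32.7 CPM in control (0.46, SE 0.19). The count of 3 was 1 without knockout replicate 2 or control replicate 1 and 2 without control replicate 2 or 3, and 3 clock genes were lower without knockout replicate 1.

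Genes nearest to the subject of the study gave few differences. Among the fibroblast growth factors, Fgf10, a secreted factor of preadipocytes, was higher, with 36.5, 37.4 and 34.3 CPM in the knockout libraries, against 28.7, 22.0 and 26.7 CPM in the control libraries (0.47, SE 0.13), and the groups did not overlap. Fgf1 had 72.5, 77.7 and 92.0 CPM in knockout, against 89.9, 82.6 and 78.8 CPM in control, and Fgf12, another homologous factor, had 1.36, 1.98 and 0.917 CPM in knockout, against 0.765, 0.460 and 1.63 CPM in control (0.33, SE 0.27). Of 5 receptors and coreceptors tested, 0 had an unadjusted p under 0.05, and Fgfr1 had 221, 214 and 235 CPM in knockout, against 234, 282 and 271 CPM in control (-0.23, SE 0.12). Without knockout replicate 3, 1 receptor gene was higher, and without control replicate 1, 1 was lower. Of 8 voltage-gated sodium channel genes tested, 0 had such a p, and 1 was higher without knockout replicate 3, control replicate 1 or control replicate 3. In de novo ceramide synthesis 0 of 13 genes had an unadjusted p under 0.05, and 1 was higher and 1 lower without knockout replicate 3. Sptlc2, of the rate-limiting serine palmitoyltransferase, had 68.4, 55.3 and 74.2 CPM in knockout, against 75.2, 65.9 and 62.1 CPM in control, and the ceramide synthase Cers6 had 36.4, 33.3 and 61.0 CPM in knockout, against 55.5, 50.8 and 40.1 CPM in control (-0.20, SE 0.24). In sphingomyelin turnover, Sgms1, which turns ceramide into sphingomyelin, had 49.4, 54.1 and 68.8 CPM in knockout, against 79.7, 68.1 and 78.7 CPM in control (-0.40, SE 0.15), with overlap, and was the 1 of 10 tested genes lower at an unadjusted p under 0.05. The count was 2 without knockout replicate 3 and 0 without knockout replicate 1, knockout replicate 2, control replicate 1 or control replicate 3. S1pr4, a sphingosine 1-phosphate receptor of lymphocytes, had 9.48, 7.33 and 6.30 CPM in knockout, against 5.28, 4.41 and 5.31 CPM in control (0.52, SE 0.18). None of 8 caveolar genes and none of 40 genes of mTORC1 and AMPK nutrient sensing tested had an unadjusted p under 0.05, and 1 and 3 of them were higher without control replicate 1. Cav1 had 1356, 1586 and 1211 CPM in knockout, against 1464, 1164 and 1255 CPM in control, and Mtor had 74.5, 96.0 and 72.9 CPM in knockout, against 80.9, 73.4 and 91.0 CPM in control.

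**Figure D5:**
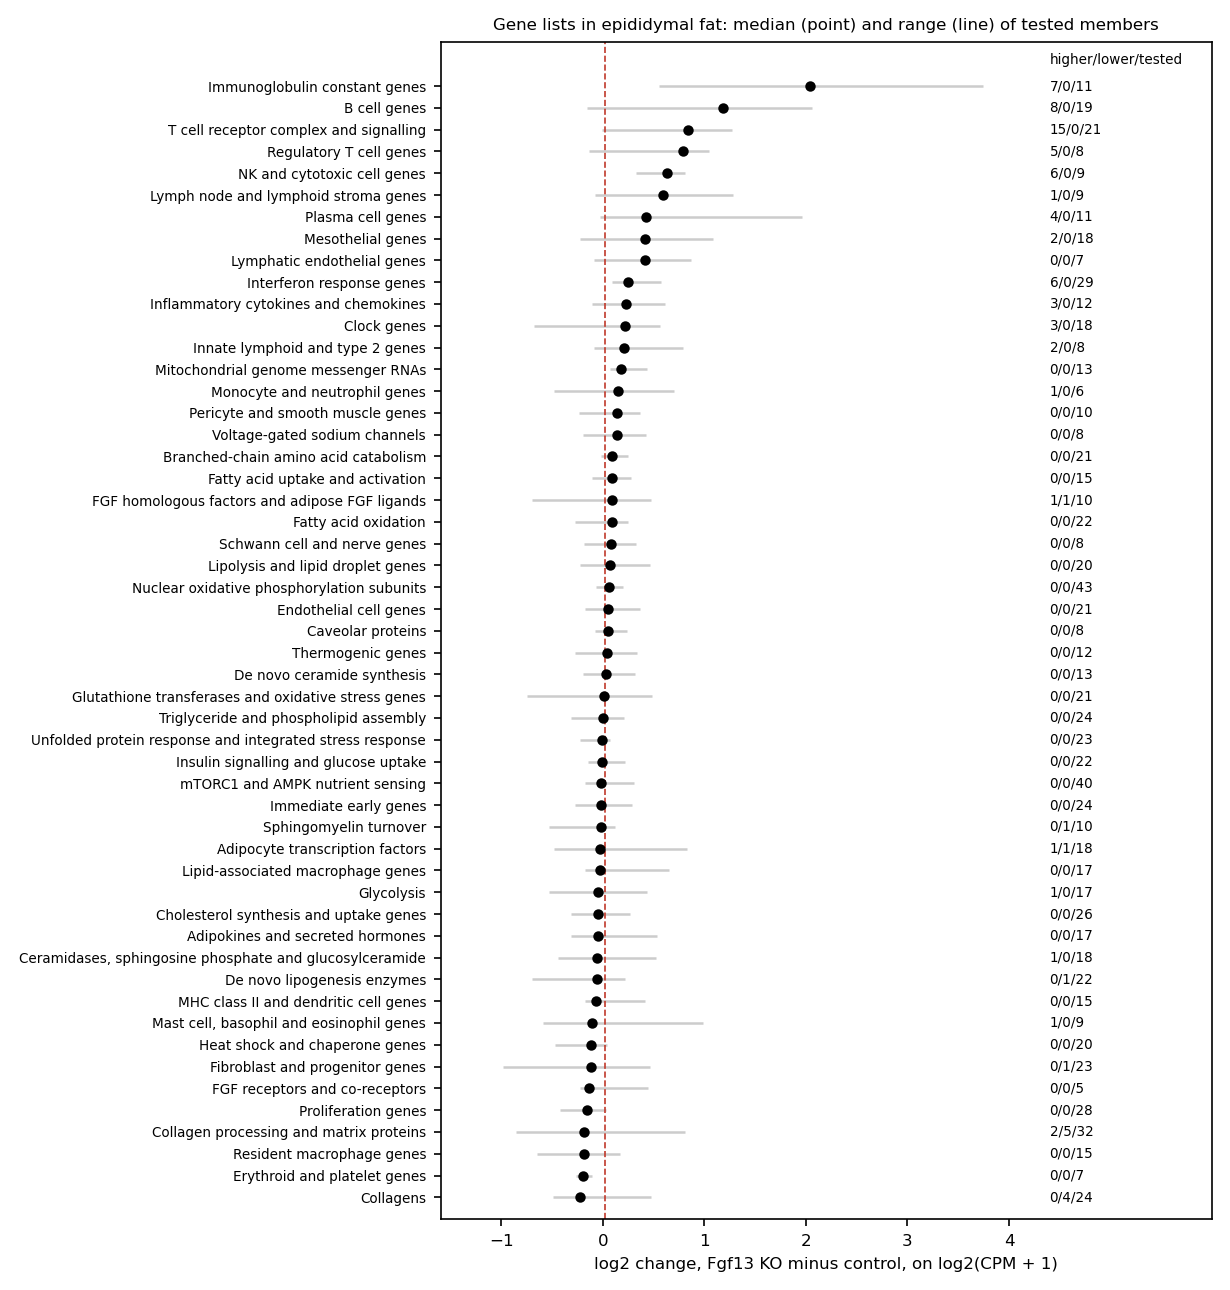
Median (point) and range (line) of the log2 change, knockout minus control, over the tested members of each gene list with at least 5 tested members. The dashed line is the median over all 14749 genes tested, 0.02, and the figures on the right count members higher and lower at an unadjusted p under 0.05 and members tested. Lymphocyte lists stand at the top, from 2.04 for immunoglobulin constant genes, and collagens at the bottom with -0.23.

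The subcutaneous fat of the inducible knockout (2 knockout and 3 control libraries, a separate table scaled on its own) was read for the same 24 genes. Of the 12 genes lower in epididymal fat, 10 were also lower without overlap in subcutaneous fat, where 19.6% of 13894 tested genes had that pattern, and 0 were higher, where 12.4% had it. The 10 include Fgf13, the targeted gene, with 31.3 and 35.3 CPM in subcutaneous knockout, against 58.9, 53.0 and 69.2 CPM in subcutaneous control. Whether the depots came from the same mice is not stated. Kcna5 had 26.5 and 23.1 CPM in knockout, against 50.6, 45.9 and 48.8 CPM in control there, and Tmem252 had 11.01 and 9.51 CPM in knockout, against 33.1, 18.1 and 29.6 CPM in control. Slc10a6 had 5.30 and 3.75 CPM in knockout, against 16.04, 10.8 and 12.5 CPM in control, and Lrrc8a had 62.1 and 64.4 CPM in knockout, against 106, 89.5 and 97.1 CPM in control. These 4 membrane genes had lower knockout values in both depots. So did Ackr3, Rnf169, Tsc22d3, Col6a2 and Mmp14, also without overlap, so the pattern was not particular to channels and carriers. Scd2 overlapped in subcutaneous fat, with 655 and 544 CPM in knockout, against 674, 599.9 and 717 CPM in control. Of the 12 genes higher in epididymal fat, 11 passed the filter in subcutaneous fat, 0 were higher there without overlap and 4 were lower. Ighm had 1176 and 1239 CPM in knockout, against 1389, 1055 and 1089.5 CPM in control there, with overlap, and Lck had 3.34 and 2.35 CPM in knockout, against 3.29, 3.49 and 6.31 CPM in control. Esr1 had 28.9 and 30.5 CPM in knockout, against 11.2, 11.5 and 9.73 CPM in control in subcutaneous fat, higher and without overlap as in epididymal fat. The difference between depots was not tested, since the tables were scaled separately.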

How the data were processed

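RNA-seq of epididymal fat gave 3 Fgf13 KO and 3 control libraries. FastQC, MultiQC, Salmon and DESeq2 1.38.3 are named in the submitters' processing notes, which give no role for each. Aligner and genome build: not given in the sources used here. The deposited epididymal table is named as FPKM but holds CPM: each column sums to 1000000 and 100% of values are whole multiples of 1 read (tolerance 0.01 reads; 1 read is 0.0229 to 0.0335 CPM). The deposited subcutaneous table also holds CPM, and the deposited further epididymal table FPKM; both gave values set side by side, with no test. Intervals from reads cover counting error only.

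Ensembl identifiers without version were matched to GENCODE M21 symbols (28169 of 29330). limma 3.58.1 in R 4.3.3 (a two-sided test; lmFit, then eBayes with its trend and robust options) was fitted to log2(CPM + 1) of genes with at least 1 CPM in 3 or more libraries, with Benjamini-Hochberg adjustment and a threshold of 0.05; this pseudocount understates changes of low genes. edgeR 4.0.16 and DESeq2 1.42.0 were run on the recovered reads. All 3 were tested on simulated data. Named are Fgf13; the 12 higher and 12 lower genes of smallest p without overlap and with a mean of at least 5 CPM in the higher group, leaving out gene models and variable segments; up to 4 members of smallest p and the defining members of each list; and immunoglobulin constant genes. Any further gene was picked with its values known, as were the testis and liver lists. A few list members are not reported here. The members and lists were chosen with earlier results of these data known.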

Additional observations from a re-analysis of the deposited data

Results flagged for a closer look

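In 14 genes all knockout libraries lay above all control libraries in epididymal fat and below all control libraries in subcutaneous fat. They came from 44 genes that were higher in epididymal fat with no overlap, passed the filter in subcutaneous fat, and either stood among the 24 genes above or had an unadjusted p under 0.05 in a list. That is 31.8% of the 44, against 19.6% of all genes tested in subcutaneous fat that were lower there without overlap. Of the 44, 3 were higher without overlap in both depots, where 12.4% of all genes tested in subcutaneous fat were higher there. Of 20 genes chosen likewise that were lower in epididymal fat, 0 were higher in subcutaneous fat without overlap and 16 (80%) were lower. The shares of all genes were the same 12.4% and 19.6%. The difference between depots was not tested, because the tables were scaled separately, and no explanation was tested. The epididymal log2 changes were 1.01 for Trbc2, 1.01 for Cd2, 0.880 for Zap70, 0.861 for Cd3d and 0.804 for Cd6, all of T cells. They were 0.812 for Il2rb and 0.741 for Tbx21, of natural killer and T cells, and 1.03 for Blk and 1.28 for Ltb, of B cells and lymphocytes at large. They were 0.806 for Spon1, 0.901 for Dnase1l3, 0.979 for Sept1, 1.03 for Serpina3g and 0.696 for Ly6c2, the marker of inflammatory monocytes. The subcutaneous log2 changes of the 14 genes ran from -0.754 for Blk to -0.169 for Tbx21. Zap70, for example, had 0.796 and 0.889 CPM in subcutaneous knockout, against 1.34, 1.85 and 1.74 CPM in subcutaneous control. Zap70, Cd6 and Blk were under 1 CPM in both subcutaneous knockout libraries and passed the filter through the 3 control libraries alone. The 2 knockout libraries cannot pass a gene alone, so the filter favours lower knockout values in subcutaneous fat.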

How the results depend on the processing

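The count of genes past the threshold stayed at 0 under TMM or DESeq2 size factor scaling, a total without immunoglobulin genes, pseudocounts of 0.1 and 0.5, no filter, a filter of 5 CPM in 3 libraries, eBayes without its options, array weights, edgeR and an adjusted p under 0.10. It was 32 with DESeq2, and 0 to 1 with each library left out (1 without knockout replicate 3, Ighv1-81). Replicate numbers did not pair the samples: deviations of same-numbered libraries correlated at 0.109, 0.136 and -0.391, and 2 of 6 libraries correlated best with their own number. With the replicate number as a block the count was 1 (Ighg2c). The log2 change of Fgf13 ran from -0.86 without knockout replicate 3 to -0.59 without knockout replicate 2. Among 286 named genes the sign turned for at most 4 under another scaling and for 6 to 31 when a library was left out, most without knockout replicate 2. Of 55 list medians, 5 to 18 turned sign when a library was left out and at most 2 under another scaling, which moved the median over all genes by less than 0.1. Added after the values were seen, leaving out control replicate 3 and knockout replicate 2 together gave 0 genes past the threshold, as did leaving out genes peculiar to 1 library. Genes near 1 CPM rest on few reads.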

Other observations

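In the further epididymal set, given in FPKM and with neither diet nor kind of knockout stated, Scd2 had 147, 84.7 and 157 FPKM in knockout, against 53.6, 58.2 and 35.6 FPKM in control. Mgp had 514, 436 and 475 FPKM in knockout, against 633, 701 and 633 FPKM in control there. Such differences were not peculiar to these genes in that set. Adipoq had 1294, 1468 and 1530 FPKM in knockout, against 687, 614 and 412 FPKM in control, and Plin1 was likewise higher without overlap. Trem2 had 385, 293 and 336 FPKM in knockout, against 436, 569 and 715 FPKM in control, and the fatty acid carrier gene Cd36 overlapped. The share of all genes without overlap in this set was not counted, so the counts that follow have no background. Of the 24 genes with the smallest p in the inducible set, 4 had no overlap here. The knockout libraries lay on the other side for 3, Scd2, Mgp and Ackr3, and on the same side for 1, Mmp14, with 86.1, 87.5 and 74.7 FPKM in knockout, against 100.3, 127 and 142 FPKM in control. Ackr3 had 23.4, 19.3 and 29.0 FPKM in knockout, against 16.8, 18.2 and 13.05 FPKM in control. Fgf13 itself had 23.1, 17.6 and 27.0 FPKM in knockout, against 20.4, 27.6 and 12.9 FPKM in control in that set, with overlap, so the targeted gene did not separate its groups. The difference between the 2 sets was not tested.

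Genes of the epididymis, the duct beside this depot, reached 1 CPM in single libraries. Adam7 had 2.08 CPM in knockout replicate 2 and at most 0.1 CPM elsewhere, Crisp1 had 3.42 CPM in control replicate 1, and Cst8 had 7.52 CPM in control replicate 3. The glutathione transferase Gstm5 had 17.6, 24.6 and 15.0 CPM in knockout, against 18.4, 18.6 and 93.4 CPM in control, and hexokinase 1 (Hk1) had 69.9, 57.5 and 76.8 CPM in knockout, against 71.5, 78.4 and 168 CPM in control, both highest in control replicate 3, which held the testis transcripts. Of 28 tested proliferation genes, 25 had lower values in knockout, where 55.8% of all genes had higher values. Their mean log2(CPM + 1) overlapped between the groups, and 0 were lower at an unadjusted p under 0.05 (2 without knockout replicate 3). Aurka had 6.88, 5.73 and 7.11 CPM in knockout, against 7.60, 7.64 and 12.9 CPM in control. The part of the testis transcripts in these values was not tested.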
